A study of Mus musculus with 145 samples.

Results

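The 9 genes described here belong to antigen presentation by the major histocompatibility complex (MHC) of the mouse. They are the class II chain genes H2-Aa, H2-Ab1 and H2-Eb1, the invariant chain gene Cd74, the classical class I heavy chain genes H2-K1 and H2-D1, the class I light chain gene B2m, and the non-classical class I genes H2-M2 and H2-M5. They were chosen by symbol among the 55416 genes of the count table, with the differences between irradiated and sham skin in these same libraries already known, so those differences are given for the 9 genes as a description and carry no test. RNA was sequenced from dorsal skin of mice exposed under a tanning canopy (8 lamps of 100 W, 96.4% UVA and 3.6% UVB). The 30 groups combine the doses 0 (sham-handled), 5, 10, 20 and 40 mJ/cm2 with the times 0, 6, 24, 48, 72 and 96 h. There were 5 animals in each of 25 groups and 4 in each of the other 5, namely 5, 10, 20 and 40 mJ/cm2 at 96 h and 20 mJ/cm2 at 48 h. The sources used here do not give strain, sex or age, and an MHC haplotype other than that of the reference genome could lower the counts of single MHC genes.

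MHC class II molecules pair an alpha with a beta chain and show peptides from endosomes to CD4 T cells. The invariant chain Cd74 guards the groove until the peptide is loaded. In skin they are made mainly by Langerhans cells, dermal dendritic cells and macrophages. Classical class I molecules are made by nearly all nucleated cells, bind B2m and show peptides from the cytosol to CD8 T cells. H2-M2 and H2-M5 lie in the H2-M region at the far end of the complex and encode non-classical class I proteins, whose roles are less well known. On GRCm38 (GENCODE vM21) H2-M2 lies at chr17:37480851-37483552 and H2-M5 at chr17:36984061-36989537, and the class II chain and classical heavy chain genes lie on the same chromosome, while B2m lies on chromosome 2.

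The promoters of classical MHC genes share a module in which an X box, whose X2 part holds a TGACG core, lies upstream of a Y box, ATTGG. RefSeq promoter windows (GRCm38.p6) of 7 of the 9 genes were read, leaving out H2-Ab1 and Cd74. The 160 bases before the start of 6 of them are shown to set the classical genes beside H2-M2 and H2-M5, 5′ to 3′ on the gene's own strand. Capitals mark the Y box letters ATTGG, the X2 core TGACG, the TATA box letters TATAAA and an interferon response element (GAAA, any 2 bases, GAAA), each searched on both strands; overlapping matches share capitals.
H2-Aa, chr17:34287824-34287983, minus strand: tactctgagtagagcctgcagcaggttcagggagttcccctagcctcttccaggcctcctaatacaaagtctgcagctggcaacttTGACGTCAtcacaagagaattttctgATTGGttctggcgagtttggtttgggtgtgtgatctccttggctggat
H2-Eb1, chr17:34305707-34305866, plus strand: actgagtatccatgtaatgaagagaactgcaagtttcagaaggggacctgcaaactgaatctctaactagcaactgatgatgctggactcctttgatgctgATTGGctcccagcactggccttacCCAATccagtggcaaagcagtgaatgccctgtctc
H2-K1, chr17:34000348-34000507, minus strand: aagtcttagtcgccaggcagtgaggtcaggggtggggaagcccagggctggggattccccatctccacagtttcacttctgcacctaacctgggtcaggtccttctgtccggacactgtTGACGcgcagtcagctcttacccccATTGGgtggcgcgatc
B2m, chr2:122147527-122147686, plus strand: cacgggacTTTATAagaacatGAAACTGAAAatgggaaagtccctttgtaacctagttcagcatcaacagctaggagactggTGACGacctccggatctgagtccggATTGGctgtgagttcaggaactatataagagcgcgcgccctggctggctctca
H2-M2, chr17:37483555-37483714, minus strand: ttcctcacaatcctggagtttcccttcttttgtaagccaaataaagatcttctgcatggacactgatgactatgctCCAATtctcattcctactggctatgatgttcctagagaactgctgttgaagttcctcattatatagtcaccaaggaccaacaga
H2-M5, chr17:36989534-36989693, minus strand: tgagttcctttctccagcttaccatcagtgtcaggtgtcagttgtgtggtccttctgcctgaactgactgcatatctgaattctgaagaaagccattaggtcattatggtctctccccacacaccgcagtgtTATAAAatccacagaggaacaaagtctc
ATTGG was found in 25.6% of all 32851 promoter entries of this length, TGACG in 13.8%, TATAAA in 8.01% and the interferon response element in 1.72%. TGACG followed by ATTGG on 1 strand, with 18 to 22 bases between them, was found in 69 entries (0.21%), a spacing chosen after the promoters of these genes were seen. H2-Aa holds that pair with 21 bases between, and H2-K1, H2-D1 and B2m hold it with 20. The windows of H2-Eb1, H2-M2 and H2-M5 do not hold it in these letters. H2-M2 has ATTGG on the opposite strand, and H2-M5 has TATAAA alone. A match is a description of the letters and no evidence of binding.

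Library totals had a median of 11.1 M counts (M for mega), the lowest being 0.18 M and the highest 64.6 M. The 2 libraries under 1 M (20 mJ/cm2 replicate 5 at 0 h and 10 mJ/cm2 replicate 5 at 6 h) held no count of H2-M2 or H2-M5, which allows up to 15.4 and 16.3 CPM (counts per 1 M) from counting error alone, more than any library showed. Keratinocyte markers were present throughout, all 6 B cell markers had medians under 1 CPM, and the summed level of 12 skeletal muscle markers ran from 14000 to 59900 CPM in sham skin. Mitochondrial transcripts took 2.15% to 34.8% of the counts in sham libraries. In whole skin, fewer cells of a type and less RNA per cell cannot be told apart.

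In sham skin B2m was the highest of the 9 genes and H2-M5 the lowest. Per kilobase of exon, B2m stood at 1240 ± 415 CPM per kb (SD, n = 30) and Cd74 at 287 ± 143. H2-D1 and H2-K1 followed at 183 ± 68 and 181 ± 49.6 CPM per kb, a gap far inside their spread. The class II chains H2-Eb1, H2-Aa and H2-Ab1 stood at 104 ± 44.1, 82 ± 27.2 and 75.6 ± 27.6 CPM per kb. H2-Aa lay within 1 SD of both others, while H2-Eb1 and H2-Ab1 differed by slightly more than the SD of H2-Ab1. The order depends on the length used, here all annotated exons of a gene joined. Without it H2-Eb1, H2-Aa and H2-Ab1 stood at 202, 311 and 194 CPM, and H2-K1 (530 CPM) lay above Cd74 (482 CPM). H2-M2 and H2-M5 stood at 3.44 ± 0.976 and 1.12 ± 0.362 CPM per kb. These sham levels rest on 12 to 288 counts per library for H2-M2 and 9 to 170 for H2-M5. Over all 145 libraries, irradiated ones included, the ranges were 0 to 354 and 0 to 213, against 17 or more for the other 7 genes. The counts of 0 were those of the 2 libraries under 1 M.

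H2-M2 was lower in skin exposed to 40 mJ/cm2 than in sham skin from 6 to 96 h, and its mean fell to 19.9% of sham at 72 h. At 0 h the groups overlapped, with 3.28 to 9.57 CPM in sham and 3.06 to 11.8 CPM at 40 mJ/cm2, and the log2 fold change was 0.02 ± 0.40 (SE). All values below are CPM in libraries in replicate order. At 6 h, sham libraries held 4.02, 3.61, 6.02, 3.99 and 4.19 CPM of H2-M2 and irradiated ones 3.4, 1.24, 0.897, 2.65 and 1.34 CPM. Every irradiated library lay below every sham library, and the log2 fold change was -1.22 ± 0.32. At 24 h, sham held 6.18, 4.59, 3.02, 5.53 and 7.52 CPM and 40 mJ/cm2 2.21, 2.21, 1.98, 2.57 and 1.97 CPM (log2 fold change -1.29 ± 0.23). The 40 mJ/cm2 libraries were close together, at 2.19 ± 0.245 CPM (SD, n = 5). At 48 h, sham held 4.76, 4.28, 6.8, 7.55 and 5.18 CPM and 40 mJ/cm2 3.66, 0.9, 0.414, 2.03 and 1.34 CPM (-1.84 ± 0.37). Replicate 1 was the highest irradiated library there, still below the lowest sham library. At 72 h, sham held 5.82, 5.7, 3.6, 7.29 and 5.16 CPM and 40 mJ/cm2 0.583, 0.804, 0.831, 1.36 and 1.91 CPM (-2.35 ± 0.44), the widest gap of the 6 times. At 96 h, sham held 5.35, 5.05, 4.18, 7.66 and 4.64 CPM and the 4 irradiated libraries 2.85, 2.4, 1.52 and 2.63 CPM (-1.20 ± 0.46). They still did not overlap.

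H2-M5 followed the same course with larger differences, and at 72 h its mean stood at 8.74% of sham. At 0 h the log2 fold change was 0.05 ± 0.32. At 6 h, sham libraries held 2.01, 2.5, 2.62, 3.09 and 2.55 CPM of H2-M5 and those of 40 mJ/cm2 1.53, 0.963, 0.448, 0.509 and 0.383 CPM (log2 fold change -1.79 ± 0.40). The groups did not overlap. At 24 h, sham held 4.41, 2.55, 3.1, 4.03 and 4.44 CPM and 40 mJ/cm2 0.516, 1.24, 1.98, 0.818 and 0.897 CPM (-1.79 ± 0.33), again with no overlap. At 48 h, sham held 2.38, 1.24, 3.68, 5.17 and 2.84 CPM and 40 mJ/cm2 0.954, 1.09, 0.0828, 1.29 and 0.358 CPM (-1.97 ± 0.47). Here the groups touched, since sham replicate 2 lay below irradiated replicate 4. At 72 h, sham held 3.4, 4.99, 2.01, 3.62 and 3.77 CPM and 40 mJ/cm2 0.194, 0.268, 0.312, 0.634 and 0.147 CPM (-3.39 ± 0.52). The irradiated values there rest on 1 to 7 counts per library, so the size of this difference is imprecise. At 96 h, sham held 3.25, 3.47, 2.4, 3.43 and 3.1 CPM and 40 mJ/cm2 1.5, 1.45, 1.09 and 0.526 CPM (-1.44 ± 0.38), with no overlap.

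**Figure D1:**
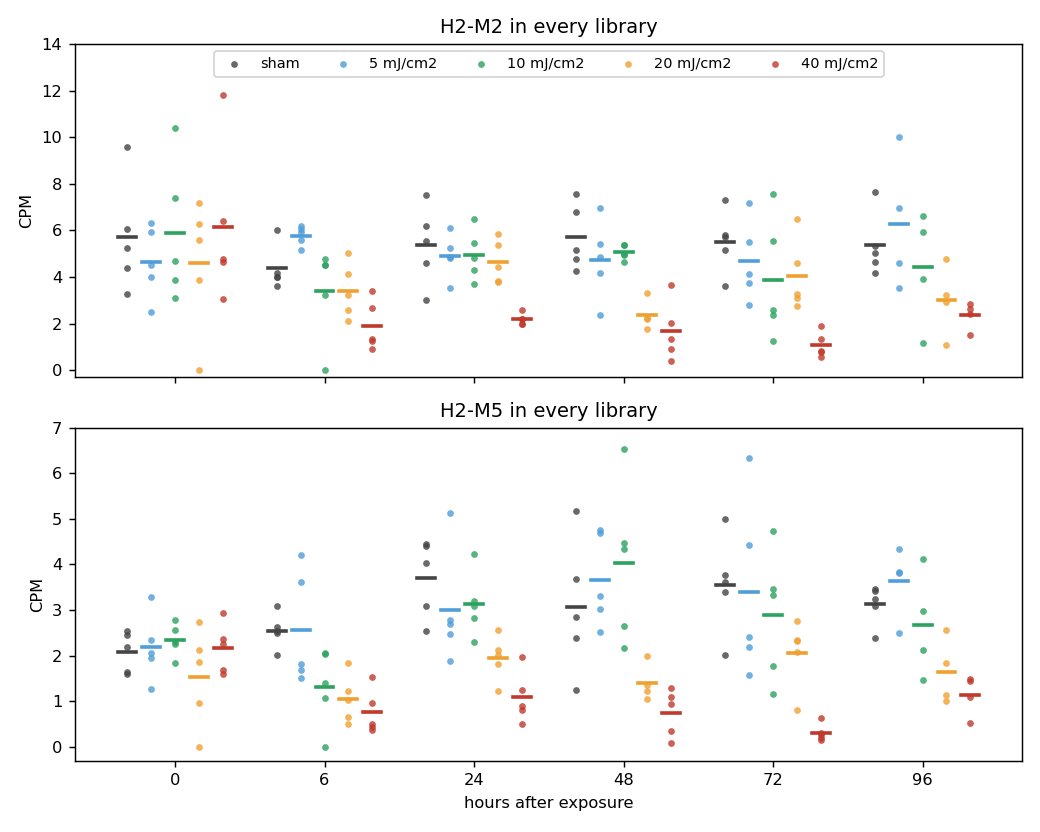
Each point is 1 library, with CPM on the vertical axis and hours after exposure on the horizontal axis, coloured by dose; bars are group means. The 40 mJ/cm2 points lie below the sham points from 6 to 96 h for H2-M2, and for H2-M5 at the same times except 48 h, where 1 sham library reaches into the irradiated range; the 2 points at 0 CPM are the libraries under 1 M counts.

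Called means that edgeR's quasi-likelihood test over 18677 genes gave an adjusted p under 0.05. At 40 mJ/cm2, 2 of the 9 genes, H2-M2 and H2-M5, were called lower at 6, 24, 48 and 72 h, beside 2.75%, 1.26%, 3.76% and 0.22% of all genes called lower. None of the 9 was called at 0 or 96 h, where 0% and 0.118% of genes were called in either direction. Since the genes were chosen with these differences known, the shares are background and nothing is read from them. The share of all genes with every 40 mJ/cm2 library below every sham library was 4.45%, 2.25%, 6.11%, 1.04% and 1.19% from 6 to 96 h. The library titles end in R1 or R1_001, and the sources used here do not say what the ending marks. Within 1 ending, with 2 or 3 libraries a group, H2-M2 stood at -1.04 and -1.39 at 6 h, -1.55 and -1.10 at 24 h, -2.35 and -1.10 at 48 h and -1.96 and -3.09 at 72 h, for R1 and R1_001 in turn. H2-M5 stood at -2.64 and -1.31, -2.30 and -1.46, -2.70 and -0.67, and -3.01 and -4.15. Both genes kept the direction in these 8 fits each, and of the calls only those at 48 h among R1 libraries were kept. The 6 h call of H2-M2 was lost without sham replicate 3 or without 40 mJ/cm2 replicate 2, 3 or 5, with log2 fold changes of -1.54 to -1.04 over all alternatives. Its 72 h call was lost without 40 mJ/cm2 replicate 1. With only sham and 40 mJ/cm2 of a time in the fit, the calls of H2-M2 at 6, 24 and 72 h and of H2-M5 at 24 and 72 h were lost.

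At 20 mJ/cm2 both genes lay between sham and 40 mJ/cm2 in mean level at 6 to 96 h. H2-M2 in the 4 libraries at 48 h stood at 2.24, 3.3, 2.22 and 1.78 CPM, all below sham (log2 fold change -1.30 ± 0.38). At 6, 24 and 72 h its 20 mJ/cm2 mean was 78.2%, 87% and 73.4% of sham, and the groups overlapped. H2-M5 at 6 h stood at 0.657, 1.23, 0.515, 1.03 and 1.84 CPM, all below sham (-1.24 ± 0.39), and its mean ran from 41.2% to 58% of sham over 6 to 96 h. Of all genes, 1.77% and 2.13% had every 20 mJ/cm2 library below every sham library at 6 and 48 h. None of the 9 genes was called at 20 mJ/cm2 at any time, where 0%, 0.434%, 0.075%, 0.482%, 0% and 0% of genes were called from 0 to 96 h, and no gene of the table was called at 5 or 10 mJ/cm2. At these lower doses the log2 fold changes of H2-M2 ran from -0.55 ± 0.40 (10 mJ/cm2, 72 h) to 0.40 ± 0.30 (5 mJ/cm2, 6 h). Those of H2-M5 ran from -0.72 ± 0.41 (10 mJ/cm2, 6 h) to 0.37 ± 0.42 (10 mJ/cm2, 48 h).

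A line fitted to log2 dose over 5, 10, 20 and 40 mJ/cm2 leaves out sham skin but uses irradiated libraries by which the genes were chosen. It too is a description and no independent support, and it does not show whether a fall was even over the doses. At 24 h the means at these 4 doses were 4.91, 4.96, 4.67 and 2.19 CPM for H2-M2. For H2-M5 they were 3, 3.13, 1.95 and 1.09 CPM. H2-M2 changed by -0.51 ± 0.10 (SE) per doubling of dose at 6 h, -0.35 ± 0.09 at 24 h, -0.58 ± 0.14 at 48 h, -0.57 ± 0.18 at 72 h and -0.48 ± 0.16 at 96 h. H2-M5 changed by -0.57 ± 0.13, -0.51 ± 0.12, -0.83 ± 0.17, -0.92 ± 0.21 and -0.57 ± 0.13 per doubling at those times. At 0 h the slopes were 0.10 ± 0.12 and -0.02 ± 0.10. H2-M2 was called lower with dose at 6 and 48 h and H2-M5 at 6, 24 and 48 h, beside 0.669%, 0.241% and 1.11% of all genes at 6, 24 and 48 h. Genes called in either direction were 0%, 1.42%, 0.953%, 3.84%, 0.6% and 0.0428% of those tested from 0 to 96 h. The other 7 genes gave slopes from -0.28 (H2-Ab1, 96 h) to 0.13 (H2-D1, 72 h), and none of these 42 was called. The 5 calls fell to 2, 2, 1, 3 and 3 when replicates 1 to 5 of every irradiated group were left out in turn.

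**Figure D2:**
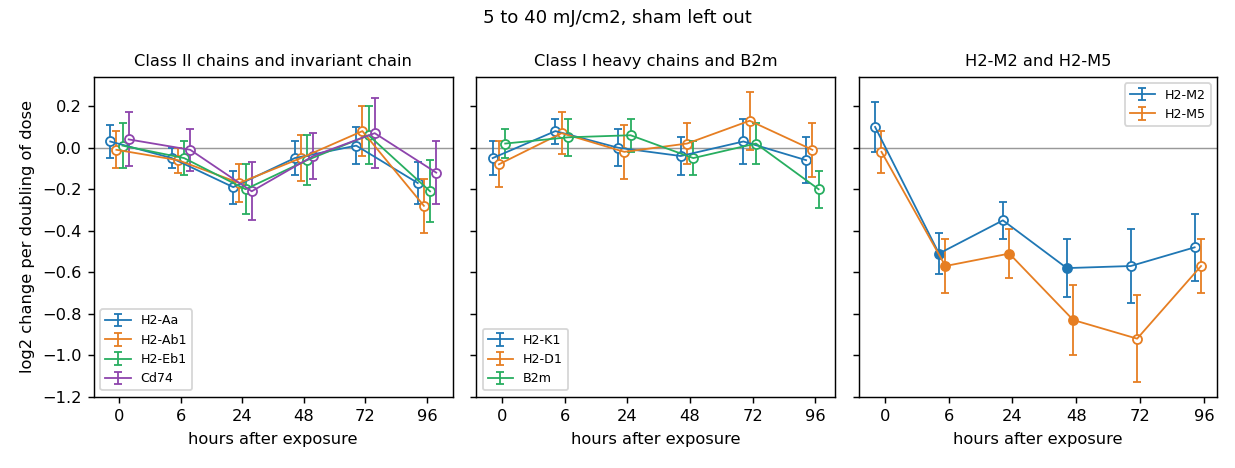
Dose slopes from 5 to 40 mJ/cm2, as the log2 change per doubling of dose with SE bars, by hours after exposure; filled points are called. The slopes of H2-M2 and H2-M5 lie between -0.35 and -0.92 from 6 h on, while those of the other 7 genes stay between -0.28 and 0.13.

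The class II genes showed no called difference at any dose or time. At 40 mJ/cm2 their lowest values were at 24 h, with log2 fold changes of -0.56 ± 0.24 for H2-Aa, -0.51 ± 0.30 for H2-Ab1, -0.53 ± 0.38 for H2-Eb1 and -0.50 ± 0.46 for Cd74 (SE). H2-Aa, the alpha chain of the I-A molecule, stood at 310, 255, 213, 263 and 483 CPM in sham libraries at 24 h and at 200, 240, 178, 171 and 236 CPM at 40 mJ/cm2. The groups overlapped, with 2 irradiated libraries above the lowest sham library. Cd74 spread more widely, at 551, 295, 249, 231 and 851 CPM in sham skin and 411, 334, 201, 111 and 473 CPM at 40 mJ/cm2. At the other 5 times the 4 genes lay between -0.31 (Cd74, 72 h) and 0.25 (Cd74, 6 h). With the library's mitochondrial share as a further covariate, chosen after seeing the data, the 24 h values were -0.66 ± 0.16, -0.67 ± 0.15, -0.76 ± 0.14 and -0.82 ± 0.22, and all 4 were called, among 3400 genes. With skeletal muscle level as covariate instead, also chosen after seeing the data, they were -0.12 ± 0.23, 0.05 ± 0.28, 0.26 ± 0.35 and 0.47 ± 0.41, and none was called. Within title endings the same 24 h values were -0.89, -0.92, -1.02 and -0.91 in R1 and -0.32, -0.23, -0.22 and -0.21 in R1_001 libraries, none of them called. The direction thus depended on the covariate at 24 h for 3 of the 4 genes. It did so at 48 h as well, where Cd74 was called with -0.71 ± 0.22 under mitochondrial share and with 0.78 ± 0.27 under muscle level. Median mitochondrial shares were 7.12% in sham and 5.3% in irradiated skin at 24 h, and 4.07% and 2.37% at 48 h. The part of either measure in the class II values was not tested.

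The classical class I genes and B2m showed no called difference at any dose or time. At 40 mJ/cm2 H2-K1 lay between -0.12 ± 0.25 at 48 h and 0.46 ± 0.20 at 6 h, and H2-D1 between 0.07 ± 0.41 at 24 h and 0.45 ± 0.30 at 6 h. At 6 h, sham libraries held 567, 432, 508, 298 and 538 CPM of H2-K1 and irradiated ones 669, 607, 766, 498 and 642 CPM. The groups overlapped in 1 irradiated library, which lay below 3 sham libraries. With muscle level as covariate H2-K1 and H2-D1 were called at 24 h, with 0.66 ± 0.23 and 0.95 ± 0.29, and H2-D1 at 48 h with 1.05 ± 0.25. With mitochondrial share the sign turned and none was called: H2-K1 and H2-D1 stood at -0.12 ± 0.12 and -0.27 ± 0.16 at 24 h, and H2-D1 at -0.30 ± 0.24 at 48 h. The summed muscle markers at 48 h ran from 37000 to 59900 CPM in sham and 16800 to 29800 CPM at 40 mJ/cm2, and their part in these values was not tested. B2m lay between -0.09 ± 0.22 at 48 h and 0.23 ± 0.25 at 96 h. Among all groups of dose and time, B2m lay apart from sham only at 5 mJ/cm2 and 96 h. All 4 libraries there (1300 to 1810 CPM) lay above the sham range (629 to 1030 CPM). It was not called (edgeR adjusted p = 0.501), nor was any other gene. The share of all genes with such a gap was not counted, so nothing is read from it. Over the 4 doses and 6 times none of 168 comparisons of the 7 genes was called, with log2 fold changes from -0.68 (Cd74, 10 mJ/cm2, 48 h) to 0.94 (H2-Ab1, 5 mJ/cm2, 96 h). Some stretches of 75 bases in H2-K1 (3.1%) and H2-D1 (5.4%) also occur in other genes such as H2-Q7, so their counts can borrow from relatives, while H2-M2, H2-M5, B2m and the class II genes shared none.

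**Figure D3:**
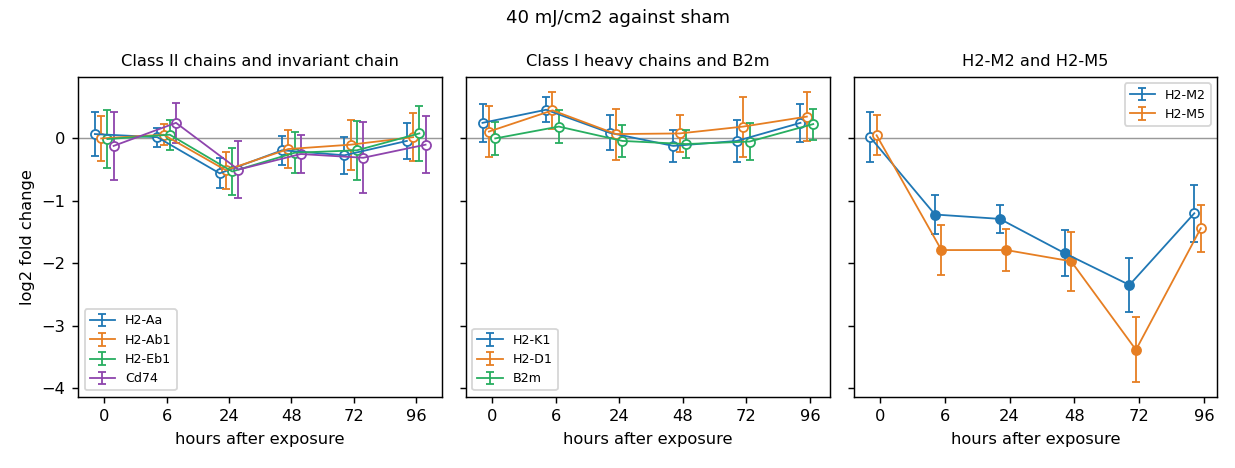
Log2 fold change at 40 mJ/cm2 against sham of the same time, with SE bars, for the 9 genes in 3 panels by role; filled points are called at an adjusted p under 0.05. H2-M2 and H2-M5 lie between -1.20 and -3.39 from 6 h on, and the class I and class II genes between -0.56 and 0.46 at all times.

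Across the 30 sham libraries the class II genes varied with each other, as did the class I heavy chains, while B2m ran the other way. H2-Aa rose and fell with H2-Ab1 (Pearson r 0.96, Spearman rho 0.94) and with Cd74 (0.94 and 0.93), and H2-K1 with H2-D1 (0.98 and 0.97). B2m had r of -0.58 (rho -0.36) to H2-K1 and -0.60 (rho -0.39) to H2-Aa, which weakened to -0.32 for both without the 2 libraries farthest from the median mitochondrial share. That share moved with these genes: r was -0.83 (rho -0.71) for H2-Aa, -0.83 (-0.84) for Cd74, -0.80 (-0.70) for H2-K1 and 0.81 (0.78) for B2m, and r was -0.70, -0.85, -0.73 and 0.80 without those 2 libraries. Within each title ending (15 libraries) r ran from -0.73 to -0.91 for the 6 class I heavy chain and class II genes. Of all genes tested, 13.7% had r under -0.75 and 5.47% over 0.75, so such relations were common. The skeletal muscle level moved with the same genes, with r of 0.74 for H2-Aa, 0.82 for Cd74 and -0.57 for B2m. H2-M2 had r of 0.18 (rho -0.25) with the mitochondrial share and H2-M5 -0.13 (rho -0.26), and H2-M2 turned from 0.57 in R1_001 to -0.58 in R1 libraries. These are descriptions over libraries of 6 times and 2 title endings, and the part of tissue makeup or RNA quality in them was not tested.

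**Figure D4:**
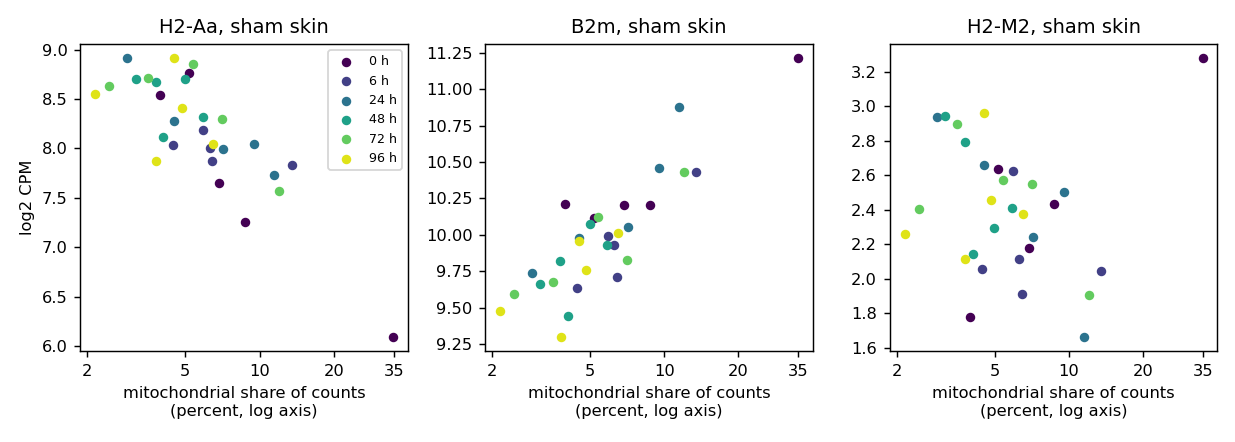
Log2 CPM of H2-Aa, B2m and H2-M2 in the 30 sham libraries against the percent of counts from mitochondrial genes (log axis), coloured by time. H2-Aa falls and B2m rises with the share, and the library at 34.8% is sham replicate 3 at 0 h.

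Sham skin allowed a test that does not use the irradiated libraries. edgeR called 0 of the 9 genes as differing between the 6 times, and 801 genes of the table (4.29%). At an unadjusted p under 0.05 there was 1, B2m (edgeR adjusted p = 0.283), and DESeq2 called 0. B2m means ran from 1410 ± 543 CPM at 0 h to 846 ± 174 CPM at 96 h (SD, n = 5), and the 0 h mean includes the library at 34.8% mitochondrial counts with 2380 CPM. H2-M5 means ran from 2.09 CPM at 0 h to 3.71 CPM at 24 h (edgeR adjusted p = 0.4). H2-M2 means ran from 4.37 to 5.72 CPM (edgeR adjusted p = 0.869).

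A further 73 genes were set in 4 lists. They cover other class I and class I-like genes, and other class II genes and chaperones. They also cover peptide supply and loading, and MHC transcription with the interferon gamma axis. Of the 73, 62 had enough counts. At 40 mJ/cm2 changes passed the test at 48 h only: 5 rose and 1 fell, beside 3.97% and 3.76% of all genes. The median log2 fold change of the 62 was 0.07 at 48 h, against -0.01 over all genes. Lgmn, the lysosomal asparaginyl endopeptidase that takes part in processing antigen and the invariant chain, stood at 78.3, 107, 110, 101 and 81.5 CPM in sham and 194, 156, 401, 337 and 300 CPM at 40 mJ/cm2. It rose by 1.49 ± 0.24 on the log2 scale (SE, edgeR adjusted p = 0.000377). Ctss, the cathepsin that cleaves the invariant chain, went from 84.1 ± 8.55 to 192 ± 42.2 CPM (SD, n = 5) and rose by 1.18 ± 0.21 (edgeR adjusted p = 0.00104). The irradiated libraries lay above all sham libraries for both. The share of all genes with such a gap upward was not counted. Downward, with every 40 mJ/cm2 library below every sham library, it was 6.11% at 48 h. Ulbp1 and Raet1d, ligands of the receptor NKG2D, rose by 1.21 ± 0.31 and 3.26 ± 0.92 (edgeR adjusted p = 0.0164 and 0.0295). Raet1d lay outside the naming rule for its low level, at 0 to 5 counts per sham library and 1 to 30 at 40 mJ/cm2, and shares 44.1% of its 75-base stretches with Raet1e. Irf8, a transcription factor of myeloid cells, rose by 0.76 ± 0.22 (edgeR adjusted p = 0.0317), and Cxcl9, a chemokine induced by interferon gamma, changed by -1.78 ± 0.41 (edgeR adjusted p = 0.00725). Of the 62 genes, 3 had a called slope over dose at 48 h, all upward, beside 2.73% of all genes called higher with dose. They were Lgmn, Ctss and Ulbp1, at 0.48 ± 0.09, 0.37 ± 0.08 and 0.45 ± 0.10 (edgeR adjusted p = 0.00318, 0.0134 and 0.0122). These slopes use the same 40 mJ/cm2 libraries and are no independent support.

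**Figure D5:**
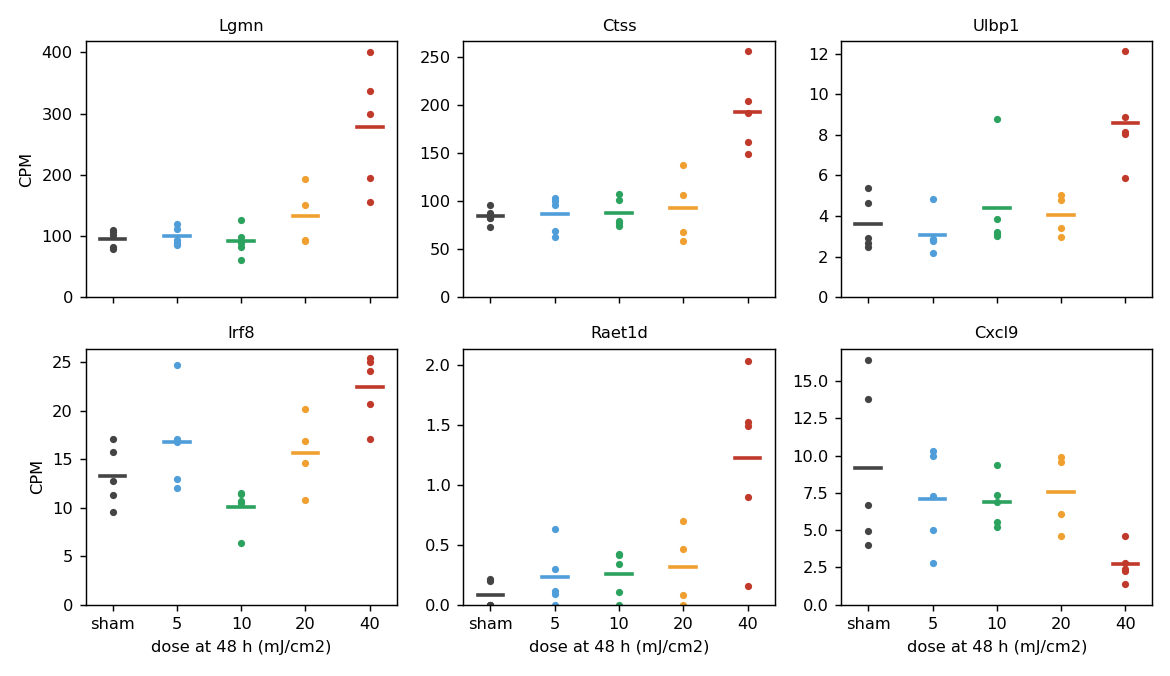
CPM of the 6 called list genes at 48 h in every library by dose, with bars for group means. Lgmn and Ctss lie higher in all 5 libraries of 40 mJ/cm2 than in any sham library, and the share of all genes so placed was not counted. Cxcl9 lies mostly lower, and Raet1d is near the limit of detection in sham skin.

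The count of 6 at 48 h depended on single libraries. It was 3 without sham replicate 5 and 3 without 40 mJ/cm2 replicate 3, and 3 and 0 among R1 and R1_001 libraries alone. Lgmn, Ctss and Cxcl9 kept their calls in every fit without 1 library, while Ulbp1, Irf8 and Raet1d lost theirs in 3, 7 and 8 of 10. At 48 h, 6 of 13 monocyte and macrophage markers were called higher, beside 3.97% of all genes, among them Fcgr1 (1.82 ± 0.31) and Cd68 (1.38 ± 0.27), named after their values were seen. Their summed level at 48 h ran from 1090 to 1580 CPM in sham and 1160 to 2360 CPM at 40 mJ/cm2. The part of these cells in the rise of Lgmn and Ctss was not tested.

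At the other times edgeR called 0 of the 62 genes at 40 mJ/cm2, beside 0%, 4.89%, 2.92%, 1.26% and 0.118% of all genes at 0, 6, 24, 72 and 96 h, and 7.73% at 48 h. At an unadjusted p under 0.05 there were 2, 8, 4, 9 and 2 genes, and DESeq2 called 0, 2, 1, 1 and 1. Ciita, the master regulator of class II genes, lay between -0.52 (0 h) and 0.46 (72 h). Nlrc5, its class I counterpart, lay between -0.45 and 0.01. Tap1, the peptide transporter subunit, lay between -0.29 and 0.23 and Psmb9, an immunoproteasome subunit, between -0.18 and 0.35. None of these 4 was called at any time (smallest edgeR adjusted p = 0.296). With muscle level as covariate Ciita, Tap1 and Psmb9 were called at 48 h and Psmb9 at 72 h, and with mitochondrial share Psmb9 was called at 24 h. Ifng, the gene of interferon gamma, was too low to test, with at most 10 counts in a library and 0 in 57 of 145.

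The genes whose group means lay closest to H2-M2 over the 30 groups were H2-M5 (r 0.91), Il22ra2 (0.90), Slc16a9 (0.87), Abcc4 (0.87), Trat1 (0.86), Cd3g (0.86), Slc6a4 (0.86) and Prkag2 (0.85). For H2-M5 they were Kcnj16 (0.92), H2-M2 (0.91), P2rx2 (0.91), Il20ra (0.90), Cd3g (0.90), Slc6a4 (0.89), Prkag2 (0.88) and Trat1 (0.88). All these groups share the irradiated and sham libraries. The means also include the 2 libraries under 1 M counts, which held no count of H2-M2 or H2-M5. Within the 30 sham libraries alone the same r ran from -0.25 (Prkag2) to 0.43 (H2-M5) for H2-M2. For H2-M5 it ran from -0.19 (Prkag2) to 0.58 (P2rx2). With Cd3g it was 0.25 for H2-M2 and 0.51 for H2-M5, and with Trat1 0.17 and 0.23. The mean of the 3 class II chains and Cd74 lay closest to Tmem176b (0.88), Batf3 (0.87), Fbxl8 (0.87), Pltp (0.87), Enho (0.87), Plpp7 (0.87), Lsp1 (0.86) and Hexa (0.86), and these kept r of 0.81 to 0.97 in sham skin.

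Single markers of Langerhans cells and T cells fell over the same period. Cd207, the langerin gene of Langerhans cells, stood at 0.03 ± 0.22 at 40 mJ/cm2 and 6 h. It changed by -1.40 ± 0.34, -1.87 ± 0.34 and -1.90 ± 0.33 at 24, 48 and 72 h (edgeR adjusted p = 0.0257, 0.00126 and 0.00699). It was the 1 of 8 Langerhans cell markers called lower at each of those 3 times, and none was called at 6 h. The summed level of the 8 did not follow Cd207 at every time. It ran from 329 to 367 CPM in sham and 376 to 398 CPM at 40 mJ/cm2 at 6 h, from 303 to 372 and 244 to 343 CPM at 48 h, and had medians of 337 and 344 CPM at 72 h. Of 10 T cell markers 2, 3, 3 and 2 were called lower at 6, 24, 48 and 72 h, beside 2.75%, 1.26%, 3.76% and 0.22% of all genes. Cd3g, a subunit of the T cell receptor complex, changed by -1.27 ± 0.27 at 6 h and -1.79 ± 0.34 at 72 h (edgeR adjusted p = 0.00511 and 0.0113). Cd3e, another subunit, stood at -0.52 ± 0.27 at 6 h (edgeR adjusted p = 0.327) and changed by -1.99 ± 0.39 at 72 h (edgeR adjusted p = 0.0153). The summed T cell markers ran from 37.7 to 45.6 CPM in sham and 19.9 to 29.9 CPM at 40 mJ/cm2 at 6 h, and from 45.8 to 56 and 15.3 to 31.9 CPM at 72 h. The dendritic cell gene Ccr7 and the macrophage gene C1qa were called at no time, with C1qa at most 0.52 ± 0.30. The part of fewer Langerhans or T cells in the lower H2-M2 and H2-M5 was not tested.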

How the data were processed

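Expected counts for 145 libraries were deposited by the authors in 1 table, in which 12.6% of values were not whole. Single 75-base reads came from stranded poly(A) libraries made from 300 ng RNA, per the labels' protocols. At 48 h the titles of 5 mJ/cm2 replicate 3 and 20 mJ/cm2 replicate 2 hold another ng amount. Some titles, these among them, hold the word repeat, and the sources used here do not say what it marks. STAR 2.7.10a, fastp 0.23.0, bcl2fastq 2.20.422 and DESeq2 1.36.1 are listed with build GRCm39, per the submitters' processing notes. The sources used here do not say which program counted reads, with which annotation and whether by strand, so counts of overlapping or related genes are uncertain. Symbols came from GENCODE vM21 (52083 identifiers matched, and the rest held 0.0906% of counts). Promoters came from RefSeq on its own build, GRCm38.p6.

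After rounding, edgeR 4.0.16 (R 4.3.3) was run (TMM scaling, filterByExpr with 30 groups, 18677 genes, quasi-likelihood F tests, two-sided). Each time had 1 fit of its 5 doses plus a term for the title ending. Benjamini-Hochberg adjustment ran over all genes of a comparison. SE came from the fold and F value, and CPM are on TMM-scaled sizes (log2 CPM with a prior count of 2). Each library is a separate animal, per the series' design text, and no pair of libraries in a group was identical (Spearman 0.709 to 0.988 over 280 pairs). On simulated data for 40 mJ/cm2 against sham at 48 h (18677 genes), 22% of genes changed by 1 log2 unit and 99% of those changed by 2 were recovered, with 9 false calls.

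The 9 genes, the lists and the tests were chosen with earlier results of these data known. Of the lists, the text names all 9 genes, up to 4 called rises and 4 falls per time whose mean log2 CPM was 0 or more, and Ciita, Nlrc5, Ifng, Tap1 and Psmb9; 1 further gene of the rule is not reported here. It also names the 8 genes closest by Pearson r, and Cd207, Ccr7, Cd3e and C1qa. Alternatives were DESeq2 1.42.0, upper-quartile scaling, no filter, no covariate, other sets of groups, 1 title ending, leaving out libraries (59 fits with 1 library left out, 35 with 1 replicate number), and, added after seeing the data, muscle level or mitochondrial share as covariate. Counting error limits the H2-M genes, as reads without molecular identifiers give intervals for counting alone.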

Additional observations from a re-analysis of the deposited data

Results flagged for a closer look

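Of 144 combinations of a gene and a group of 4 or 5 libraries examined for single values far from the rest, 5 stood out, where chance gives about 1 in 20. H2-M2 in sham skin at 6 h was 6.02 CPM in replicate 3, with the next at 4.19 CPM. H2-M5 at 5 mJ/cm2 and 24 h was 5.12 CPM in replicate 3, with the next at 2.79 CPM. B2m in sham skin at 0 h was 2380 CPM in replicate 3, with the others between 1110 and 1190 CPM, and that library had 34.8% mitochondrial counts. B2m at 40 mJ/cm2 was 1750 CPM in replicate 4 at 6 h, with the next at 1030 CPM, and 1260 CPM in replicate 1 at 96 h, with the next at 910 CPM.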

How the results depend on the processing

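No paired analysis was possible because the titles number the libraries 1 to 150 and share no number between groups; replicate numbers here follow accession order. The direction of every called value of H2-M2, H2-M5 and the 6 list genes was the same under all alternatives tried. Of the list genes called at 40 mJ/cm2, DESeq2 gave 2, 1, 1 and 1 at 6, 24, 72 and 96 h. With muscle level as covariate the counts were 1, 11, 21, 5 and 1 from 6 to 96 h, and with mitochondrial share 1, 10, 3 and 1 at 6, 24, 72 and 96 h. At 6 h the count was 1 without libraries under 1 M counts, 1 with sham and 40 mJ/cm2 fitted alone and 1 in a fit of all 30 groups. At 48 h it was 11 with sham and 40 mJ/cm2 alone, 3 among R1 and 0 among R1_001 libraries. At 72 h it was 2 in the fit of all groups, and at 96 h 1 without the filter. Leaving out 1 library gave 0 at 0 h, 0 at 6 h, 0 to 1 at 24 h (1 without 40 mJ/cm2 replicate 4 or 5), 3 to 6 at 48 h, 0 to 2 at 72 h (2 without 40 mJ/cm2 replicate 3 or 5) and 0 to 1 at 96 h (1 without sham replicate 2). Slope calls of the 9 genes were 8 with DESeq2 and 1 to 3 without 1 replicate number. Between sham times 3 of the 9 genes were called with muscle level as covariate (Cd74, H2-K1 and H2-D1) and 0 without any 1 replicate number. The cause of these changes was not tested. Low counts limit the precision of H2-M2 and H2-M5.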
